A study of Rattus norvegicus with 6 samples.

Results

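The genes described here are 10 genes of the unfolded protein response and of protein folding in the endoplasmic reticulum (ER). They are Hspa5, Hsp90b1, Pdia4, Calr, Serpinh1, Creb3l1, Xbp1, Atf4, Ddit3 and Dnajb9. They were taken by gene name from a table of 30562 rat genes, each name was found once, and all 10 had enough reads to be tested.

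Proteins bound for secretion fold in the ER with the help of chaperones and of enzymes that form disulfide bonds. When unfolded proteins build up there, the membrane sensors PERK, IRE1 and ATF6 start the unfolded protein response, which raises chaperones, slows translation and, if stress lasts, can lead to cell death. Annulus fibrosus and nucleus pulposus cells secrete large amounts of collagen and proteoglycan, and collagen needs its own ER chaperone, the product of Serpinh1.

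RNA of tail disc tissue was sequenced from male Sprague-Dawley rats whose disc between the coccygeal vertebrae Co6 and Co7 had been punctured with an 18 G needle at the age of 12 weeks, in both groups. The control group received PBS. The other group received AF-PTK@LEV@SPP1, a hybrid of liposome and detoxified bacterial vesicle with an annulus-binding peptide on a linker that oxidants cleave, loaded with siRNA against Spp1. Injections into the disc began 24 h after puncture, in 10 μL with 1 mg/kg siRNA, and the animals were followed for 8 weeks, with 3 animals per group by the methods, which do not give the time of RNA collection separately. The sample records differ from this account: they give wild-type genotype, an untreated control, treatment for 14 days and macrophages sorted from the discs of mice. The siRNA was described as directed at the mouse gene, while the table holds rat genes.

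The tissue was checked against marker genes. The 11 annulus and fibroblast markers, led by Col1a1, summed to 71820, 111660 and 112630 normalized CPM (reads rescaled so that libraries of different depth can be compared) in PBS replicates 1, 2 and 3. In replicates 1, 2 and 3 labelled AF-PTK@LEV@SPP1 they summed to 125430, 90453 and 109920 CPM. The 9 macrophage markers, led by Csf1r and Mrc1, summed to 1205, 809 and 806 CPM in PBS. In the other group they summed to 405, 662 and 543 CPM. The libraries thus carry the collagen genes of disc tissue at levels far above macrophage genes, as disc tissue would, and not the profile of sorted macrophages.

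The PBS libraries held 17942989, 16565291 and 17489851 counts and those labelled AF-PTK@LEV@SPP1 held 17074981, 15560728 and 17855184. PBS replicates 2 and 3 were nearly the same library: their counts varied 1.33 times as much as counting noise over 14393 genes, against 54.7 to 109 times for the 5 other pairs within a group. They were therefore summed and counted as 1 sample, which leaves n = 2 PBS samples against n = 3, and the fit with all 6 libraries kept is given beside it. Spp1, the target of the siRNA, stood at 8122, 4411 and 4417 CPM in PBS and at 8054, 6903 and 8461 CPM in the AF-PTK@LEV@SPP1-labelled libraries. Spp1 was not lower under that label, so every direction below is relative to the labels and not to a measured loss of Spp1.

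None of the 10 genes passed the test between the groups, at an adjusted p under 0.05 in edgeR's quasi-likelihood test with Benjamini-Hochberg adjustment over 15537 genes. The same test called 575 genes in all, or 3.70%, of which 400 (2.57%) were lower and 175 (1.13%) higher in the AF-PTK@LEV@SPP1-labelled libraries. The chaperone and collagen-secretion genes Hspa5, Hsp90b1, Calr, Serpinh1 and Creb3l1 were nonetheless lower in every library of that label than in every PBS library, at 59.6% to 71.2% of the PBS mean. Lower values without overlap were found for 20.1% of all genes tested. Ddit3 was higher in each of those libraries than in each PBS library, a pattern that 21.8% of all genes tested showed, and Pdia4, Xbp1, Atf4 and Dnajb9 overlapped between the groups. At an unadjusted p under 0.05 stood 5 of the 10 genes, against 25.4% of all genes tested. That count was 2 without replicate 2 labelled AF-PTK@LEV@SPP1 and 1 without its replicate 3. Of all genes, 3109 of 15208 and 2699 of 15228 tested stood there in those fits.

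With all 6 libraries kept, edgeR called 2 of the 10 genes, Calr and Serpinh1, both lower. That fit called 18.1% of 15042 genes, 9.93% lower and 8.20% higher. DESeq2 with the pair summed called 3, Calr, Serpinh1 and Hsp90b1, all lower, and called 16.6% of all genes. The calls on these chaperones therefore depend on the tool and on counting the near-identical PBS libraries separately. The median log2 fold change of the 10 genes was -0.34, and that of all genes tested was 0.05.

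**Figure D1:**
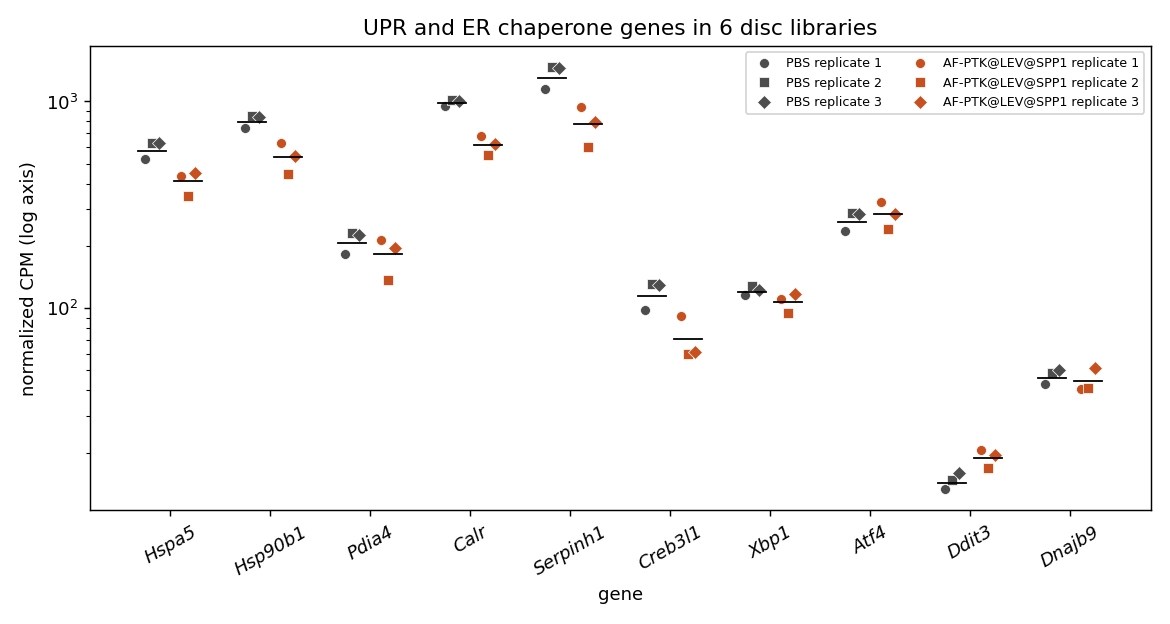
Normalized CPM (log axis) of the 10 genes in each library, grey for PBS and orange for AF-PTK@LEV@SPP1-labelled libraries; black lines are the means over 2 distinct PBS samples and 3 libraries of the other label. Hspa5, Hsp90b1, Calr, Serpinh1 and Creb3l1 lie lower in every orange library than in every grey one, and Ddit3 lies higher.

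Hspa5 (ENSRNOG00000018294, chromosome 3) encodes BiP, the ER member of the Hsp70 family, which binds unfolded chains and also holds the stress sensors inactive. Its level was 525, 631 and 632 CPM in PBS replicates 1, 2 and 3, and 436, 350 and 450 CPM in the AF-PTK@LEV@SPP1-labelled libraries. All 3 of the latter lay below the lowest PBS library, with replicate 2 the lowest of all. The means were 578 ± 74.9 CPM (SD, n = 2) and 412 ± 54.0 CPM (SD, n = 3). The log2 fold change was -0.50 (SE 0.19, 95% interval -0.97 to -0.03), with an adjusted p of 0.181 in edgeR, and of 0.0541 with all 6 libraries kept. In bulk tissue, fewer cells of a type that expresses such a gene and less RNA per cell cannot be told apart.

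Hsp90b1 (ENSRNOG00000026963, chromosome 7) encodes GRP94, the Hsp90 of the ER, which helps fold integrins, toll-like receptors and other secreted or membrane proteins. It stood at 743, 848 and 842 CPM in PBS and at 632, 447 and 545 CPM under the other label. The groups did not overlap, and the nearest libraries were PBS replicate 1 and replicate 1 labelled AF-PTK@LEV@SPP1. Mean levels were 794 ± 72.4 CPM (SD, n = 2) and 541 ± 92.8 CPM (SD, n = 3). In edgeR the log2 fold change was -0.56 (SE 0.20, 95% interval -1.08 to -0.04; adjusted p 0.174, and 0.0532 with 6 libraries).

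Dnajb9 (ENSRNOG00000004006, chromosome 6) encodes ERdj4, a J-domain partner of BiP whose gene is a well known target of spliced XBP1. It had 42.8, 48.4 and 50.2 CPM in PBS and 40.5, 40.8 and 51.6 CPM under the other label. Replicate 3 labelled AF-PTK@LEV@SPP1 was the highest of the 6 libraries and the other two of its label the lowest, so the groups overlapped. The log2 fold change was -0.07 with a 95% interval of -0.46 to 0.33 (edgeR adjusted p 0.820), an interval that holds both a modest decrease and a modest increase.

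Calr (ENSRNOG00000003029, chromosome 19) encodes calreticulin, a lectin chaperone that binds newly made glycoproteins and stores calcium in the ER lumen. PBS replicates 1, 2 and 3 had 953, 1013 and 1004 CPM, and the AF-PTK@LEV@SPP1-labelled libraries had 681, 548 and 624 CPM. The PBS libraries lay close together and the highest of the other label was well below the lowest of them. The means were 981 ± 39.1 CPM (SD, n = 2) and 618 ± 66.7 CPM (SD, n = 3), which is 63.0% of the PBS mean. Its log2 fold change of -0.68 (SE 0.17, 95% interval -1.11 to -0.24) had the lowest adjusted p of the 10 genes in edgeR, 0.0942, and 0.0201 with all 6 libraries kept. Over all alternatives its adjusted p ranged from 0.000312 to 0.263.

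Pdia4 (ENSRNOG00000006228, chromosome 4) encodes ERp72, a protein disulfide isomerase. It had 182, 231 and 227 CPM in PBS and 214, 137 and 196 CPM under the other label. The lowest PBS library lay below 2 of the 3 AF-PTK@LEV@SPP1-labelled libraries, and replicate 2 of that label was the lowest of all. With an edgeR adjusted p of 0.663, the log2 fold change was -0.18 (95% interval -0.78 to 0.42).

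Serpinh1 (ENSRNOG00000016831, chromosome 1) encodes HSP47, the chaperone that binds folded procollagen in the ER. It had 1148, 1467 and 1456 CPM in PBS replicates 1, 2 and 3, and 938, 600 and 794 CPM in the AF-PTK@LEV@SPP1-labelled libraries. Every library of that label lay below every PBS library, and its replicate 2 was the lowest of the 6. Mean levels were 1305 ± 222 CPM (SD, n = 2) and 777 ± 169 CPM (SD, n = 3), or 59.6% of PBS, the lowest share among the 10 genes. The log2 fold change was -0.76 (SE 0.26, 95% interval -1.40 to -0.11), with an adjusted p of 0.154 in edgeR and of 0.0452 with 6 libraries, within a range of 0.0301 to 0.333 over all alternatives.

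Collagen genes, whose products this chaperone binds, stood on both sides of 0. Col1a1, the chain that makes up most of type I collagen, had 31920, 44729 and 45053 CPM in PBS and 64079, 45956 and 51253 CPM under the other label. It was higher in each, narrowly between PBS replicate 3 and replicate 2 of the other label, as were 21.8% of all genes tested. Its log2 fold change was 0.48 (95% interval -0.78 to 1.73, edgeR adjusted p 0.582), an interval that holds 0. Reads of Serpinh1 per 100 reads of Col1a1 were 3.60, 3.28 and 3.23 in PBS and 1.46, 1.31 and 1.55 in the AF-PTK@LEV@SPP1-labelled libraries. This ratio was far apart between the groups, at means of 3.43 ± 0.241 (SD, n = 2) and 1.44 ± 0.124 (SD, n = 3). Per 100 reads of Col1a1, Col1a2, Col2a1 and Col3a1 together, Serpinh1 had 1.54, 1.34 and 1.32 reads in PBS and 0.663, 0.583 and 0.609 under the other label. Against Col3a1 alone, the chain of type III collagen, the order was the opposite in part: 12.4, 8.08 and 7.98 Serpinh1 reads per 100 in PBS and 15.8, 12.8 and 11.9 under the other label, where the groups overlapped. Col3a1 itself was lower in each AF-PTK@LEV@SPP1-labelled library, at a log2 fold change of -1.26 (edgeR adjusted p 0.144). Col5a1 (-1.14) was also below 0, while Col1a2 (0.79) and Col2a1 (0.57) were above it. None of these collagen genes was called with the pair summed. The ratios were chosen after their values were seen and carry no test.

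Creb3l1 (ENSRNOG00000005413, chromosome 3) encodes OASIS, a transcription factor anchored in the ER membrane that is released by cleavage and drives collagen and secretory genes. It had 98.4, 130 and 129 CPM in PBS and 91.6, 59.9 and 61.1 CPM in the AF-PTK@LEV@SPP1-labelled libraries. The groups did not overlap, but PBS replicate 1 and replicate 1 of the other label were close, and the gap rests on the remaining libraries. Mean levels were 114 ± 22.2 CPM (SD, n = 2) and 70.87 ± 17.97 CPM (SD, n = 3). The log2 fold change was -0.70 (SE 0.25, 95% interval -1.32 to -0.07), with an adjusted p of 0.165 in edgeR and of 0.0526 with 6 libraries. Its close relative Creb3l2, also a membrane-bound factor of secretory cells, had 162, 220 and 221 CPM in PBS and 393, 207 and 256 CPM under the other label, overlapping, at a log2 fold change of 0.57 (95% interval -0.26 to 1.39).

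**Figure D2:**
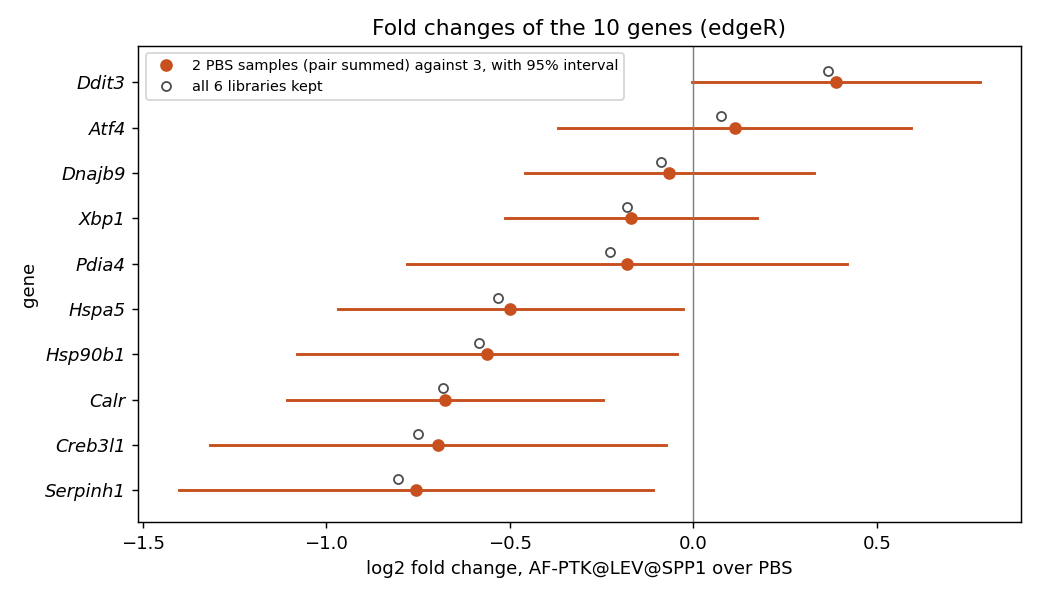
Log2 fold change of each of the 10 genes, AF-PTK@LEV@SPP1-labelled libraries over PBS, from edgeR; filled points with lines are estimates and 95% intervals with the near-identical PBS pair summed (2 against 3 samples), open points the estimates with 6 libraries. Serpinh1 (-0.76) and Creb3l1 (-0.70) are lowest and Ddit3 (0.39) highest.

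Xbp1 (ENSRNOG00000010298, chromosome 14) encodes the factor whose mRNA is spliced by IRE1 under ER stress, and gene counts do not separate the spliced form. It had 115, 127 and 123 CPM in PBS and 111, 94.8 and 116 CPM under the other label. Replicate 3 of the latter lay just above PBS replicate 1, so the groups overlapped by that pair alone. Its log2 fold change was -0.17 (95% interval -0.51 to 0.17, edgeR adjusted p 0.472).

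Atf4 (ENSRNOG00000017801, chromosome 7) encodes the factor that is translated when eIF2α is phosphorylated, so that its protein can change without its mRNA. Its level was 236, 288 and 286 CPM in PBS and 327, 241 and 286 CPM in the AF-PTK@LEV@SPP1-labelled libraries. The groups interleaved, with the highest library under one label and the lowest under the other. Its log2 fold change was 0.11 (95% interval -0.37 to 0.59, edgeR adjusted p 0.741), and its sign turned without PBS replicate 1 (-0.03) and without replicate 1 labelled AF-PTK@LEV@SPP1 (-0.03).

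Ddit3 (ENSRNOG00000006789, chromosome 7) encodes CHOP, a factor downstream of ATF4 that is linked to cell death under lasting stress. It was counted with 259, 229 and 261 reads in PBS and with 348, 278 and 341 reads under the other label, the fewest of the 10 genes, whose counts reached 23854. This is 13.3, 14.7 and 15.9 CPM against 20.5, 16.8 and 19.4 CPM. Every AF-PTK@LEV@SPP1-labelled library was above every PBS library, by a narrow margin between PBS replicate 3 and replicate 2 of the other label. The means were 14.3 ± 1.44 CPM (SD, n = 2) and 18.9 ± 1.90 CPM (SD, n = 3). The log2 fold change of 0.39 (SE 0.16, 95% interval -0.0045 to 0.78) had an adjusted p of 0.2003 in edgeR and of 0.0894 with 6 libraries. Reads of Ddit3 per 100 reads of Atf4 were 5.64, 5.11 and 5.58 in PBS and 6.26, 6.97 and 6.80 under the other label. The last 60 bases of Ddit3 overlap the end of Mars1 on the opposite strand. Whether the counting used strand is not given in the sources used here, so reads in those bases cannot be assigned with certainty.

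The order of the libraries within a group was much the same across the 10 genes. PBS replicate 1 was the lowest PBS library for 10 of 10 genes. As PBS replicates 2 and 3 were nearly the same library, this ranks only 2 distinct PBS samples. Replicate 2 labelled AF-PTK@LEV@SPP1 was the lowest of its label for 9 of 10, and replicate 1 of that label was the highest for 7 of 10. How many of all genes tested follow these orders was not counted, so the orders are not read as a trait of these genes.

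Markers of skeletal muscle set replicate 2 apart as well. The 5 muscle markers tested, of which Acta1 was the most abundant on average, summed to 814, 1078 and 1093 CPM in PBS and to 808, 8456 and 2126 CPM in the AF-PTK@LEV@SPP1-labelled libraries, and none of the 5 was called. Replicate 1 of that label, whose muscle sum was 808 CPM, had Calr, Serpinh1, Hspa5, Hsp90b1 and Creb3l1 below every PBS library. Without replicate 2, the log2 fold changes were -0.59 for Calr, -0.60 for Serpinh1, -0.58 for Creb3l1, -0.44 for Hsp90b1 and -0.39 for Hspa5. None of them was called, in a fit that called 0 of all 15208 genes tested and had 3109 at an unadjusted p under 0.05. The part of muscle RNA in the levels of these genes was not tested.

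Of 27 other ER folding helpers tested, 1 fell and 0 rose, a share like the 3.70% called among all genes. Without overlap, 14 were lower and 2 higher, against 20.1% and 21.8% of all genes, and the median log2 fold change was -0.33. Erp29, a lumenal folding factor, fell from 50.7, 43.9 and 43.7 CPM in PBS to 29.3, 26.5 and 30.7 CPM, at a log2 fold change of -0.72 (edgeR adjusted p 0.0483). Hyou1, the nucleotide exchange factor of BiP, had 86.6, 93.5 and 91.0 CPM in PBS and 58.4, 63.0 and 61.3 CPM under the other label (log2 fold change -0.56, edgeR adjusted p 0.0517). With 6 libraries, Hyou1, Pdia6, Dnajb11, Erp29, Dnajc3, Uggt1 and Fkbp11 were called, all lower, which is 7 of 27 against 9.93% of all genes called lower in that fit.

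The BiP partner Dnajc3 had a log2 fold change of -0.39 (edgeR adjusted p 0.0806), with 59.8, 59.3 and 57.0 CPM in PBS and 45.6, 45.1 and 44.9 CPM under the other label. Of the disulfide isomerase family, Pdia6 at -0.63 (edgeR adjusted p 0.0539), P4hb at -0.50 (0.257) and Pdia3 at -0.36 (0.273) were lower without overlap. Pdia5 at -0.94 (0.519), Erp44 at -0.31 (0.302) and Txndc5 at 0.08 (0.889) overlapped between the groups, as Pdia4 did. None of these 7 genes passed the test with the pair summed. Ppib, a prolyl isomerase of the collagen modification complex, was at -0.43 (0.177), and Canx, the membrane relative of calreticulin, at -0.16 (0.539), both without overlap. Creld2 was at -0.39 (0.205), also without overlap. Overlap was seen for Fkbp10 at -0.25 (0.522), the oxidase Ero1a at -0.51 (0.307) and Sdf2l1 at -0.70 (0.266). Manf had 2 to 7 reads per library and was not tested.

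The sensors and feedback genes showed no shared direction. Of 13 tested, edgeR called 0 with the pair summed and 2 with 6 libraries, against 3.70% and 18.1% of all genes. Without overlap, 4 were lower and 1 higher, against 20.1% and 21.8% of all genes, and the median log2 fold change was -0.02. Atf6, the sensor that is cleaved in the Golgi, had 88.9, 99.6 and 96.7 CPM in PBS and 61.4, 66.5 and 65.3 CPM under the other label, at -0.55 (edgeR adjusted p 0.0605, and 0.0101 with 6 libraries). Atf6b, its paralog, was also lower without overlap, at -0.29 (0.223). Eif2ak3 and Ern1 overlapped, with Eif2ak3 (PERK) at 0.31 (95% interval -0.17 to 0.79) and Ern1 (IRE1) at 0.07 (95% interval -0.34 to 0.49). Atf3, an early stress factor, had 10.2, 20.3 and 22.9 CPM in PBS and 7.64, 4.28 and 8.83 CPM under the other label, at -1.21 (edgeR adjusted p 0.173). Trib3, which feeds back on ATF4 and CHOP, was at 0.93 (0.251) with overlap. Ppp1r15a had 0 reads in every library and was not tested, which does not show that the gene was silent in the tissue.

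Genes linked to ATF4 were mixed. Of 22 tested, 1 fell and 0 rose, against 3.70% of all genes called, 5 were lower and 6 higher without overlap, against 20.1% and 21.8%, and the median log2 fold change was -0.14. Wars1, a tRNA synthetase, fell from 40.3, 41.6 and 40.3 CPM in PBS to 26.9, 27.5 and 25.8 CPM (log2 fold change -0.61, edgeR adjusted p 0.0423). Chac1, a glutathione-degrading enzyme, had 3.49, 2.96 and 4.03 CPM in PBS and 6.76, 9.53 and 8.21 CPM under the other label, at 1.21 (edgeR adjusted p 0.0564). Like Ddit3, Asns, the asparagine synthetase, was higher without overlap, at 0.69 (0.198). With 6 libraries, Chac1, Gpt2 and Phgdh were called higher and Wars1 and Cebpb lower, that is 3 and 2 of 22 against 8.20% and 9.93% of all genes.

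Genes of ER-associated degradation, which return failed proteins to the cytosol, were mixed. None of 17 was called in edgeR with the pair summed, while 3 were with 6 libraries, a share like the 18.1% of all genes in that fit. Without overlap, 4 were lower and 4 higher, close to the 20.1% and 21.8% of all genes, around a median of -0.06. Herpud1, a stress-induced part of that machinery, had 45.2, 47.3 and 46.3 CPM in PBS and 64.7, 68.4 and 67.4 CPM under the other label, at 0.53 (edgeR adjusted p 0.0531). Its direction was opposite to that of Hspa5 and Hsp90b1. Derl3 was at 0.77 (0.337), higher without overlap at under 4 CPM, and Sel1l at 0.01 (0.971) with overlap.

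Of 28 translocon and ER export genes tested, 25 had a log2 fold change below 0, as had 7117 of all 15537 genes. With the pair summed 1 fell and 0 rose, against 3.70% of all genes called, and with 6 libraries Sec61b, Sec61a1, Sec61g, Ssr4 and Ssr2 were called lower, 5 of 28 against 9.93%. Without overlap, 14 were lower and 0 higher, against 20.1% and 21.8% of all genes, and the median log2 fold change was -0.25. Sec61b, a subunit of the channel through which nascent chains enter the ER, fell from 62.0, 64.1 and 63.4 CPM in PBS to 34.0, 32.2 and 38.7 CPM (log2 fold change -0.85, edgeR adjusted p 0.0341). Genes for large cargo and retrieval overlapped, with Sec24d at -0.31 (0.442), Mia3, which loads procollagen into vesicles, at 0.01 (0.960) and Kdelr3 at -0.21 (0.581).

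**Figure D3:**
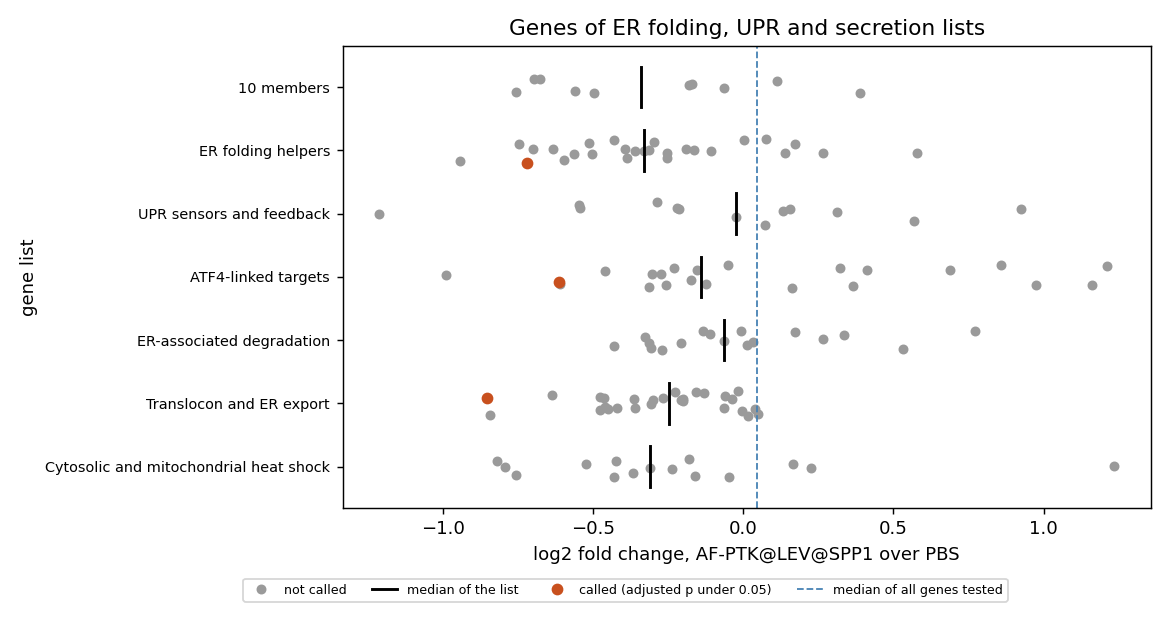
Log2 fold change (AF-PTK@LEV@SPP1-labelled libraries over PBS, edgeR) of the 10 genes and of each gene tested in 6 related lists; orange points passed the test, black bars are list medians and the dashed line is the median of all genes tested (0.05). Erp29, Wars1 and Sec61b are the called genes, all lower.

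Cytosolic and mitochondrial heat shock genes, which answer to a different stress pathway, had 0 of 15 called in edgeR with the pair summed and 3 with 6 libraries, against 3.70% and 18.1% of all genes. Without overlap, 8 were lower and 3 higher, against 20.1% and 21.8% of all genes, and their median was -0.31. Hspa8, the cytosolic relative of BiP, was lower without overlap at -0.16 (95% interval -0.52 to 0.20). Reads of Hspa5 per 100 reads of Hspa8 were 70.4, 88.8 and 86.5 in PBS and 67.4, 53.1 and 66.9 under the other label, without overlap but close between both replicates 1. Hsp90aa1 was at -0.43 (edgeR adjusted p 0.112), and Hspa1b, whose reads its near-identical copy Hspa1a can share, at -0.76 (0.396) with overlap. Reads of Hsp90b1 per 100 reads of Hsp90aa1 overlapped, at 226, 251 and 247 in PBS and 247, 184 and 218 under the other label. Against Hsp90ab1 they did not, at 138, 166 and 163 in PBS and 94.7, 74.6 and 92.2 under the other label.

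In edgeR no gene of the table passed the test without replicate 2 or without replicate 3 labelled AF-PTK@LEV@SPP1 (0 called in each; 3109 and 2699 genes at an unadjusted p under 0.05). Without replicate 1 of that label 113 genes were called, and Erp29, Wars1 and Sec61b were not among them. The log2 fold changes without replicates 1, 2 and 3 of that label in turn were -0.76, -0.66 and -0.76 for Erp29 (edgeR adjusted p 0.0861, 0.124 and 0.171). They were -0.65, -0.63 and -0.58 for Wars1 (0.0792, 0.110 and 0.177) and -0.87, -0.79 and -0.93 for Sec61b (0.0727, 0.0974 and 0.136). Without PBS replicate 1 they were -0.62, -0.63 and -0.88, with edgeR adjusted p of 0.129, 0.104 and 0.0804. Erp29 was also not called in limma-voom (-0.72, adjusted p 0.0558), with upper quartile normalization (-0.69, 0.0626) or without PBS replicate 2 (-0.71, 0.0505).

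The promoters of the 10 genes, all found in RefSeq (GRCr8), were searched on both strands from 250 bases before to 50 bases after the gene start. The ER stress element, CCAAT and CCACG with any 9 bases between, was in 4 of the 10, Hspa5, Hsp90b1, Calr and Xbp1, and in 22 of 33469 promoters (0.0657%). It lay 43 to 25 bases before the start of Hspa5, 65 to 47 before Xbp1, 232 to 214 before Calr, and in Hsp90b1 both 176 to 158 and 72 to 54 before. Among 119 genes of the lists it was in 9, the others being Canx, Creld2, Derl3, Dnajc3 and Ero1b. None of the 9 genes with the element passed the test with the pair summed. Without overlap, 20.1% of all genes tested were lower and 21.8% higher. Hspa5, Hsp90b1, Calr, Canx, Creld2 and Dnajc3 were lower without overlap, and Xbp1 (-0.17) overlapped. Derl3 (0.77), at 13 to 51 reads per library, and Ero1b (0.27) were higher without overlap. Serpinh1 and Creb3l1, also lower without overlap, lack it in this window. Whether the element bears on any of these levels was not tested. The stretches of the 4 genes are shown because they are the ones among the 10 that hold the element. They read 5′ to 3′ along the gene's strand, at chr3:38452953-38453011 (plus strand) for Hspa5, chr7:23012327-23012489 (minus) for Hsp90b1, chr19:40213117-40213173 (plus) for Calr and chr14:84604538-84604596 (plus) for Xbp1. Capitals mark the fixed bases of the element, which read CGTGG and ATTGG where it lies on the opposite strand.
Hspa5: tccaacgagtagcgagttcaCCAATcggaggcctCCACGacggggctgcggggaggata
Hsp90b1: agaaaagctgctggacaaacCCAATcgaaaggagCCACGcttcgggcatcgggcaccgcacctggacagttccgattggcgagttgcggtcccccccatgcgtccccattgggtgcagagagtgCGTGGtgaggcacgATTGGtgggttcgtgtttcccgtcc
Calr: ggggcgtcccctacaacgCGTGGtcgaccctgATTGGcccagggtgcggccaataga
Xbp1: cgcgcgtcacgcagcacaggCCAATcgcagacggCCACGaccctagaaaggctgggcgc

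Other elements of the response were absent from the 10 windows. The second form of the ER stress element, ATTGG and CCACG with any 1 base between, was in 17 promoters (0.0508%), among the listed genes in Dnajb11, Herpud1 and Hyou1. None of these 3 genes passed the test with the pair summed, and their directions differed. Dnajb11 (-0.60) and Hyou1 (-0.56) were lower and Herpud1 (0.53) higher, each without overlap, as were 20.1% and 21.8% of all genes tested. Herpud1 has it 124 to 114 bases before its start and is shown as an example of this form, at chr19:10614801-10614851 (minus strand) in the stretch shown, with the fixed bases in capitals.
Herpud1: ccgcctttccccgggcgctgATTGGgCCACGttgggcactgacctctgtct

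The UPR element TGACGTGG was in 199 promoters (0.595%) and in 8 of the listed genes, and the C/EBP-ATF element TGATGNAAT in 366 (1.09%) and 2 of the listed genes, Aars1 and Nupr1. Serpinh1, Creb3l1, Pdia4, Atf4, Ddit3 and Dnajb9 held none of the 4 motifs in this window, which says only that these letters are not there.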

How the data were processed

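The authors deposited counts, whole numbers of reads per Ensembl rat gene, with no normalization. The submitters' notes name FastQC, Trimmomatic, HISAT2, featureCounts, DESeq2 and the build mm10, which is a mouse build, without versions. Strand use, shared reads and the build of the rat coordinates are not given in the sources used here. No table column was left unmatched, and columns named IVD were taken as the control, described as PBS in the study's methods. Names shared by several genes (544 genes) were followed by identifier.

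Counts were analysed in R 4.3.3 with edgeR 4.0.16 (TMM, filterByExpr with a minimum count of 10, quasi-likelihood test, Benjamini-Hochberg over all genes tested). On simulated counts with 200 genes changed 4-fold, it recovered 100% of them, and 3.85% of its calls were false. Those changes were larger than that of any of the 10 genes, and the simulated spread was smaller than in these data. The simulation therefore does not tell how well changes of the size seen here are found. PBS replicates 2 and 3 were summed for the fit and averaged for means. CPM were normalized over 6 libraries. At 3 counts, the lowest level taken as measured, a gene stood at 0.154 to 0.193 CPM, which covers counting error only. The intervals are 95% intervals of the fit. Alternatives were 6 libraries kept, a replicate block, DESeq2 1.42.0, limma-voom (limma 3.58.1), RLE and upper quartile normalization, no filter, a fold threshold, a robust fit and each library left out.

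The 10 genes and the lists were chosen with earlier results of these data known. Named are all 10 genes, the called genes of each list (up to 6 by adjusted p) and a fixed set of pathway genes. The ratios, Col3a1, Hsp90ab1, Mars1, Pdia5, Erp44, Txndc5, Atf6b, further marker genes and genes named only for a call with 6 libraries or for a motif were added after their values were seen. Mbtps2, Sar1a, Krt19 and Myh1 were not analysed here.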

Additional observations from a re-analysis of the deposited data

How the results depend on the processing

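Of 140 values of the 10 genes under alternatives, 135 kept their side of the threshold, and 5 passed it: Calr and Serpinh1 with 6 libraries kept and in DESeq2, and Hsp90b1 in DESeq2. Atf4, never called, changed sign in 2. The count of the 10 genes called was 2 with 6 libraries kept and 3 in DESeq2, and 0 under every other alternative run, including limma-voom. For all genes, 575 calls became 2727 with 6 libraries kept and 2572 in DESeq2. Leaving out 1 library gave 0 to 566 calls: 280 without PBS replicate 1, 113 without replicate 1 labelled AF-PTK@LEV@SPP1, and 0 without its replicate 2 or 3, where 3109 and 2699 genes had an unadjusted p under 0.05. Without PBS replicate 1 the near-identical pair stands as a lone sample assumed to vary like the other group. With the 6 libraries and a replicate block, 741 genes and 0 of the 10 were called. There, 5 of the 10 had an unadjusted p under 0.05, and Erp29 lost its call (-0.67, edgeR adjusted p 0.0536). Without replicates 2 and 3 labelled AF-PTK@LEV@SPP1 in turn, 2 and 1 of the 10 had an unadjusted p under 0.05. Deviations from the group mean correlated at -0.326, -0.282 and -0.076 between the groups for replicates 1, 2 and 3. As PBS replicates 2 and 3 were nearly the same library, these values can neither show nor exclude a pairing by replicate number. The cause of these differences was not tested. Each of the 10 genes had 229 or more reads per library, and the PBS group rests on 2 distinct samples.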

Other observations

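Marker genes of other cell types varied between the libraries in which the ER genes were measured. Among all genes tested, 2.57% fell and 1.13% rose, and the counts of each list are read beside these shares. Of 9 macrophage markers, Cd14 and Cd68 fell and 0 rose. Cd14, a co-receptor for bacterial lipopolysaccharide, had 152, 134 and 134 CPM in PBS and 38.2, 36.1 and 41.5 CPM in the AF-PTK@LEV@SPP1-labelled libraries (log2 fold change -1.89, edgeR adjusted p 0.0119). Cd68, a lysosomal protein of macrophages, had 150, 112 and 116 CPM in PBS and 28.5, 42.1 and 30.9 CPM under the other label (-1.97, edgeR adjusted p 0.0231). Csf1r, Itgam and Mrc1 were lower without overlap, as 20.1% of all genes were, but not called with the pair summed. Mrc1 was called with 6 libraries (edgeR adjusted p 0.0160), where 9.93% of all genes were called lower, and Adgre1, C1qa and C1qb overlapped. Cd163 had the opposite sign, with 54.0, 29.5 and 29.0 CPM in PBS and 47.2, 143 and 88.3 CPM under the other label (1.15, edgeR adjusted p 0.246). Of 7 plasma cell markers, which include Xbp1, Prdm1 fell (-2.08, edgeR adjusted p 0.0281) and Sdc1 was lower without overlap. Jchain (1.15), Pou2af1 (0.78), Irf4 (0.49) and Mzb1 (0.34) were above 0 with overlap. Sdc1 was the most abundant on average, though Jchain exceeded it in replicates 2 and 3 labelled AF-PTK@LEV@SPP1, at 335 and 224 CPM against 104 and 210. The sum of the list was 652, 506 and 504 CPM in PBS and 458, 573 and 597 CPM under the other label. Of 11 annulus and fibroblast markers, the proteoglycan gene Lum fell, from 2474, 5922 and 5954 CPM in PBS to 324, 444 and 436 CPM (-3.40, edgeR adjusted p 0.0303). Col3a1 (-1.26), Col5a1 (-1.14) and Dcn (-0.91) were also lower without overlap, and Col1a1 (0.48), Col1a2 (0.79) and Mkx (1.25) higher without overlap. None of these 6 was called with the pair summed, and Col3a1 was with 6 libraries. These calls, too, were lost without replicate 2 or replicate 3 labelled AF-PTK@LEV@SPP1, where 0 genes of the table were called and 3109 and 2699 had an unadjusted p under 0.05. Without those replicates in turn the log2 fold changes were -1.84 and -1.94 for Cd14, -2.15 and -1.91 for Cd68, -2.24 and -2.00 for Prdm1, and -3.47 and -3.46 for Lum. Cd68, Prdm1 and Lum were also not called without replicate 1 of that label (-1.90, -2.04 and -3.30), nor Cd68 and Prdm1 without PBS replicate 1 (-1.77 and -1.74).

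The remaining lists held no called gene with the PBS pair summed, and 0 of each list is read beside the 3.70% called among all genes. With 6 libraries kept, Matn3, Lep and 3 endothelial genes were called, where 18.1% of all genes were. Neutrophil markers (6 tested, S100a9 the most abundant on average, as for each gene named below) summed to 1087, 157 and 149 CPM in PBS and to 276, 2792 and 3867 CPM under the other label. Erythroid markers (5 tested, Slc4a1) summed to 98.6, 38.0 and 34.9 CPM in PBS and 80.3, 1283 and 603 CPM under the other label. B cell markers (5 tested, Cd79a) had 42.5, 4.95 and 3.54 CPM in PBS and 21.9, 57.1 and 89.4 CPM. In these 3 lists, PBS replicate 1 was above the other PBS libraries, and replicates 2 and 3 of the other label were the highest. Adipocyte markers (5 tested, Adipoq) summed to 165, 17.6 and 17.3 CPM in PBS and to 431, 855 and 303 CPM under the other label, and all 5 were higher there without overlap, as 21.8% of all genes were. Osteoblast markers (7 tested, Ibsp) had 4670, 1838 and 1838 CPM in PBS and 2217, 3189 and 1851 CPM, with overlap for all 7. Chondrocyte and nucleus pulposus markers (8 tested, Col2a1) had 19814, 30355 and 30224 CPM in PBS and 37839, 26661 and 42341 CPM. The notochordal marker Tbxt had 142, 17.4 and 17.3 CPM in PBS and 757, 308 and 332 CPM under the other label, without overlap (2.54, edgeR adjusted p 0.195). Matn3 was lower without overlap (-1.24, edgeR adjusted p 0.111), and the 6 others of that list overlapped. Endothelial markers (5 tested, Pecam1) had 461, 567 and 554 CPM in PBS and 345, 402 and 400 CPM, and 3 were lower without overlap, against 20.1% of all genes. The part of these cell types in the levels of the ER genes was not tested.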
